A study of Homo sapiens with 6 samples.

Results

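The TREX mRNA export genes described here were 10 rows of the deposited count table, chosen by symbol: the THO subunit genes THOC1, THOC2, THOC3, THOC5 and THOC6, the helicase genes DDX39A and DDX39B, the adaptor genes ALYREF and SARNP, and the export receptor gene NXF1. All 10 had a row among the 11957 rows of the table, and the filter on low counts removed none of these rows. The samples were 6 poly(A)-selected RNA sequencing libraries of OVCA433 cells, a long-used line of human ovarian cancer. Of these, 3 libraries carried the genotype label U2AF2 SI and 3 the genotype label U2AF2 SINC, with no other treatment, time or dose in the labels. The study's question was how a deficiency of U2AF2 changes gene expression in ovarian cancer cells, but the labels expand neither abbreviation. They do not say how U2AF2 was targeted, with which reagent or for how long. Both groups are therefore named as labelled, and each fold change is U2AF2 SI minus U2AF2 SINC on the log2 scale.

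TREX (transcription-export) is a nuclear complex that is loaded on messenger RNA during transcription and splicing and prepares it for passage through the nuclear pore. Its core, THO, binds the DEAD-box helicase DDX39B, also called UAP56, or the paralogous helicase DDX39A, also called URH49. DDX39B was first described as a protein that binds U2AF2, the large subunit of the U2 auxiliary factor, and it acts both in spliceosome assembly and in export. With ATP the helicase deposits adaptors such as ALYREF on the RNA, and these pass the RNA to NXF1, which carries it through the pore.

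The libraries held 43333966 to 48976810 counts each. A single assembled locus, MSTRG.23601, made up 11.9% to 16.5% of each U2AF2 SI library and 16.0% to 19.2% of each U2AF2 SINC library, and all CPM values (counts scaled to the effective library size by the trimmed mean of M-values, TMM) allow for such differences in composition. U2AF2 stood at 285, 345 and 373 CPM in the libraries labelled U2AF2 SI, against 252, 284 and 205 CPM in those labelled U2AF2 SINC. The groups did not overlap, although the lowest U2AF2 SI library, at 285 CPM, and the highest U2AF2 SINC library, at 284 CPM, were nearly level. U2AF2 had a log2 fold change of 0.44 ± 0.19 (SE), an unadjusted p of 0.042 and, adjusted over the whole table, an edgeR p of 0.653. The gene for which the groups are named was therefore not lower in the libraries labelled U2AF2 SI, and every direction below holds for the labels only. The deposited count columns tied to U2AF2 SI by the sample descriptions begin with N and those tied to U2AF2 SINC begin with S. Whether the descriptions could be crossed between the groups was not settled by the files, and every sign below would be reversed if they were. Of 14 markers of ovarian epithelial carcinoma, 2 had a row, both keratins of simple epithelium: KRT18 averaged 290 ± 76.4 CPM in libraries labelled U2AF2 SI and 329 ± 72.3 CPM in libraries labelled U2AF2 SINC (SD, n = 3 each), and KRT8 averaged 42.6 ± 9.80 CPM in the U2AF2 SI group and 43.3 ± 2.66 CPM in the U2AF2 SINC group. The other markers of that list, among them PAX8, EPCAM, MUC16 and the keratins KRT7 and KRT19, had no row. The labelled cell type could thus be checked on KRT8 and KRT18 alone. Every row averaged 31 counts per library or more, so a marker without a row may be low or absent in these cells. Low expression and omission for another reason cannot be told apart. Of the other cell types checked, 2 of 8 fibroblast markers had a row (COL1A1 and COL1A2, averaging between 1.19 and 2.62 CPM), 1 of 8 leukocyte markers did (CD68, at 51.3 CPM), and 0 of 6 endothelial markers did. Separate cultures are nowhere stated. All p-values therefore weigh a group difference against the spread among these libraries only, and part of that spread may be technical. They do not extend to independent cultures.

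Sequences show which of these genes a short read can tell from its nearest copy. The helicase paralogs were separable: their coding sequences, of 1281 bases for DDX39A and 1284 bases for DDX39B in GENCODE release 29, were identical at 80.0% of aligned bases, and no 50-base stretch of the DDX39A transcript occurred in a transcript of another gene. The longest run that both coding sequences share was 26 bases, shown in capitals within the coding part of exon 4 of each gene (DDX39A at chr19:14411506-14411581 and DDX39B at chr6:31538763-31538838, GRCh38, both on the minus strand).
DDX39A: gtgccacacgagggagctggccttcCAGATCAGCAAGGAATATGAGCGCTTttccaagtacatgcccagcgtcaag
DDX39B: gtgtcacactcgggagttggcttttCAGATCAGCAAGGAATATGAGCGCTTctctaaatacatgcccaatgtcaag
The differing bases around the capitals are what assigns a read to one helicase or the other.

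SARNP was not separable in the same way. GENCODE 29 annotates a read-through gene, ENSG00000257390 (named AC023055.1 there), on the same strand of chromosome 12, and 98.9% of the 50-base stretches of the SARNP transcript also occurred in its transcripts. The junction before the second exon of SARNP (chr12:55803629-55803728, GRCh38, minus strand), which both transcripts use, is shown with 30 coding bases on either side, and capitals mark the shared exon. The lower-case bases come from the first exon of SARNP (chr12:55817666-55817695) and from the sixth exon of a read-through transcript of 1807 nt (chr12:55822001-55822030).
SARNP: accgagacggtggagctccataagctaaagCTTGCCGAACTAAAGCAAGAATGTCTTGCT
ENSG00000257390: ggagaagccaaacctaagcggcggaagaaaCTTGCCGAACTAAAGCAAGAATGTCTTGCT
Reads that reach the lower-case part distinguish only the transcripts shown here. They need not separate the genes, because 867 of the 877 SARNP stretches occurred in some transcript of the read-through gene. That gene has a row of its own in the table.

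THOC3 has a near copy on the same chromosome, the transcribed pseudogene AC106795.1, which had no row. It shared 58.1% of the 50-base stretches of the THOC3 transcript and a run of 740 identical bases. A window in the coding part of the first THOC3 exon (chr5:175968130-175968189, GRCh38, minus strand) is shown beside its counterpart in the pseudogene (chr5:177875614-177875673, plus strand), with the single differing base in capitals.
THOC3: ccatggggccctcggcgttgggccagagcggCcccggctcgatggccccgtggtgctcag
AC106795.1: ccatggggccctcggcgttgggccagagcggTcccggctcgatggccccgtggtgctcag
THOC3 counts are accordingly uncertain. DDX39B shared 95.3% of its 50-base stretches with the read-through gene ATP6V1G2-DDX39B, whose row held 0.837% to 3.44% of the counts of both rows in any library. Whether the authors' counting used strand is not given in the sources used here, and HCFC1R1, on the opposite strand, overlaps 18.0% of the exon bases of THOC6. USP14 overlaps 4.51% of the exon bases of THOC1 and ANAPC11 overlaps 2.85% of those of ALYREF, both again from the opposite strand. BICDL2, which had no row, overlaps 5.21% of those of THOC6, also from the opposite strand. NIPSNAP1 overlaps 2.91% of the exon bases of THOC5 on the same strand, where counting by strand would not separate them.

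Of the 10 export genes, SARNP was the single one that stood apart between the groups, and it was lower in libraries labelled U2AF2 SI. In edgeR's quasi-likelihood test 0 of the 10 passed an adjusted p of 0.05, where 0.00836% of all rows did. At an unadjusted p under 0.05 there was 1 of the 10 (SARNP), where 7.37% of all rows did so. That share was 3.15% for higher rows and 4.22% for lower rows. The CPM ranges of the groups did not overlap in 1 of the 10 (SARNP again), where this held for 13.0% of all rows, 7.36% with U2AF2 SI higher and 5.68% with U2AF2 SI lower. A count of 1 in 10 is near these background shares and says nothing about the export genes as a group. The log2 fold change was below 0 for 6 of the 10 and above 0 for 4, where 45.7% of all rows were below 0. The median of the 10 was -0.16, beside 0.04 for all rows. The edgeR adjusted p of the 10 ran from 0.653 for SARNP to 0.981 for THOC5.

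**Figure D1:**
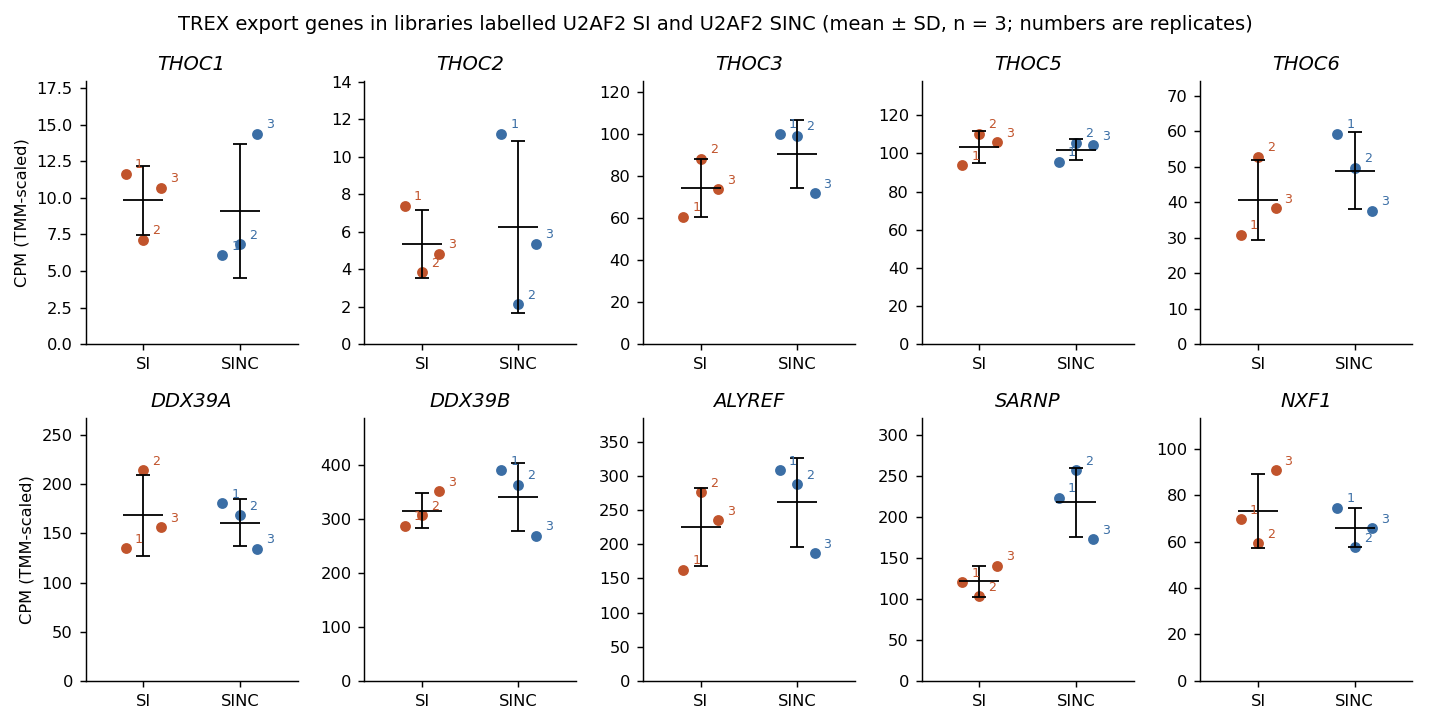
CPM (TMM-scaled, linear axis from 0) of each of the 10 export genes in the 3 libraries labelled U2AF2 SI (left) and the 3 labelled U2AF2 SINC (right). Points are libraries with their replicate number, and black lines are the mean ± SD. SARNP is the only panel in which the groups do not overlap, with 103 to 141 CPM in U2AF2 SI libraries and 173 to 257 CPM in U2AF2 SINC libraries.

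SARNP, also called CIP29, is a small protein that binds DDX39B and joins TREX in the presence of ATP. It stood at 121, 103 and 141 CPM in the libraries labelled U2AF2 SI, against 224, 257 and 173 CPM in those labelled U2AF2 SINC. The highest U2AF2 SI library was below the lowest U2AF2 SINC library, and replicate 3 was the closest to the other group in both. The means were 122 ± 18.7 CPM in the U2AF2 SI libraries and 218 ± 42.4 CPM in the U2AF2 SINC libraries (SD, n = 3 each), and edgeR put SARNP at a log2 fold change of -0.84 ± 0.20 (SE), its 95% interval running from -1.28 to -0.40. That fold change is a level 44.2% lower. In bulk RNA, fewer cells of a type and less RNA per cell cannot be told apart. The unadjusted p of 0.00137 was the 6th smallest of the 11957 rows, and the edgeR adjusted p was 0.653. By exact permutation of the 6 CPM values (2-sided) p was 0.1, which 3 against 3 libraries cannot go below. DESeq2 called SARNP, with an adjusted p of 0.0422. After independent filtering it gave an adjusted p to 1062 rows, 4 of the 10 export genes among them, and called 5.74% of those rows (5.65% lower). Without that filtering the adjusted p of SARNP was 0.127. The log2 fold change lay below 0 in all 19 alternative settings, between -0.98 and -0.47 (of these, omitting the filter on low counts kept the same rows and so changed nothing), and the adjusted p over those settings ran from 0.0422 to 0.999.

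The read-through row changed the size of this difference but not its direction. ENSG00000257390 had 755, 1025 and 10 counts across the U2AF2 SI libraries, against 27, 18 and 517 counts across the U2AF2 SINC libraries. It was thus near 0 in replicate 3 labelled U2AF2 SI and in replicates 1 and 2 labelled U2AF2 SINC, and at 517 counts or more in the other libraries, a division that crosses the groups. Its share of the counts of both rows was 10.8%, 16.7% and 0.166% across the U2AF2 SI libraries, against 0.281%, 0.173% and 6.13% across the U2AF2 SINC libraries. The exact binomial 95% interval of the largest share was 15.7% to 17.6%, which covers counting error only. Summed, the rows gave 134 ± 8.63 CPM in libraries labelled U2AF2 SI and 222 ± 36.7 CPM in those labelled U2AF2 SINC (SD, n = 3 each), with 135, 124 and 141 CPM in the U2AF2 SI libraries against 224, 258 and 184 CPM in the U2AF2 SINC libraries, so the groups still did not overlap. For the sum, edgeR gave a log2 fold change of -0.73 ± 0.18 (SE), an unadjusted p of 0.00167 and an adjusted p of 0.653.

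**Figure D2:**
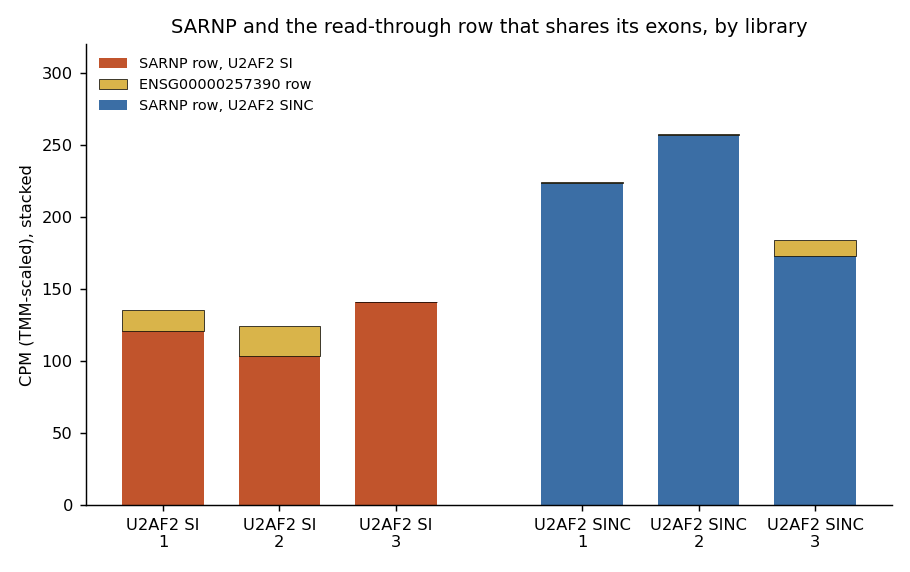
Stacked CPM (TMM-scaled, linear axis from 0) of the SARNP row and of the read-through row ENSG00000257390 in each library, U2AF2 SI left and U2AF2 SINC right. The read-through row is visible in replicates 1 and 2 labelled U2AF2 SI and in replicate 3 labelled U2AF2 SINC, and the sums, 124 to 141 CPM in the U2AF2 SI libraries and 184 to 258 CPM in the U2AF2 SINC libraries, do not overlap.

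Transcript length moved with the SARNP difference. Rows with a known length were ranked into 10 equal classes. The SARNP transcript, of 926 nt, fell in the shortest class (192 to 1439 nt), whose median log2 fold change was -0.35, while the ninth class (5685 to 7436 nt) had a median of 0.21. Deviations of the shortest class from its 6-library mean, as medians on the log2 scale, were -0.36, -0.12 and -0.05 across the U2AF2 SI libraries and 0.32, 0.30 and -0.07 across the U2AF2 SINC libraries. SARNP deviated by -0.42, -0.64 and -0.19 across the U2AF2 SI libraries and by 0.47, 0.67 and 0.10 across the U2AF2 SINC libraries. SARNP lay further from 0 than the class median in each library, and in replicate 3 labelled U2AF2 SINC it was above 0 while the class median was below. The class value is a median of 1133 rows, whereas SARNP is a single gene singled out by its difference. This comparison therefore cannot set SARNP apart from its class. With a trend on transcript length and then GC content removed within each library, the SARNP log2 fold change was -0.47 ± 0.14 (SE), with an unadjusted p of 0.00633 and an edgeR adjusted p of 0.629. At an unadjusted p under 0.05 it was again the 1 of the 10, where 7.56% of rows with a length did so (4.02% lower). Whether length or GC content accounts for any part of the SARNP difference was not tested.

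**Figure D3:**
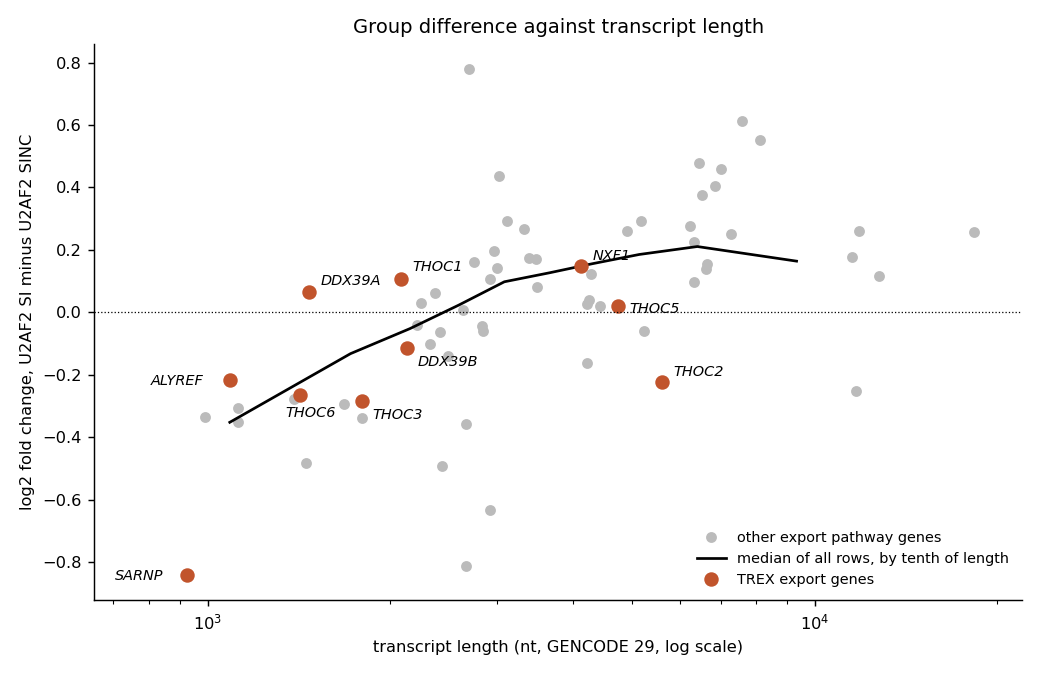
Log2 fold change (U2AF2 SI minus U2AF2 SINC) against transcript length in nt on a log axis, for the 10 export genes (orange, named), 56 other genes of export and its partners (grey), and the median of all rows in each of 10 length classes (line). The line climbs from -0.35 in the shortest class to 0.21 in the ninth, and SARNP lies below it at -0.84.

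The THO subunit genes were measured at very different levels and did not differ detectably between the groups. THOC2 encodes the large scaffold of THO, THOC1 a core subunit conserved from yeast, THOC3 a WD-repeat subunit, and THOC5 and THOC6 subunits of the metazoan complex. Per length, THOC3 was the highest of the THO genes, at 41.3 ± 7.67 CPM per kb of transcript in libraries labelled U2AF2 SI and 50.3 ± 8.97 CPM per kb in those labelled U2AF2 SINC (SD, n = 3 each). THOC6 followed at 28.7 ± 7.88 CPM per kb in the U2AF2 SI libraries and 34.5 ± 7.69 CPM per kb in the U2AF2 SINC libraries, and its mean ± SD overlapped that of THOC3 in both groups. THOC5 stood at 21.7 ± 1.81 CPM per kb in the U2AF2 SI libraries and 21.4 ± 1.15 CPM per kb in the U2AF2 SINC libraries. THOC1 stood at 4.70 ± 1.14 CPM per kb in the U2AF2 SI libraries and 4.36 ± 2.20 CPM per kb in the U2AF2 SINC libraries. THOC2 was the lowest, at 0.954 ± 0.327 CPM per kb in libraries labelled U2AF2 SI and 1.11 ± 0.821 CPM per kb in those labelled U2AF2 SINC. These levels rest on the longest protein-coding transcript of each gene in GENCODE 29, and the transcripts that the cells used were not measured here.

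THOC5 was the steadiest member. It stood at 93.7, 110.3 and 106 CPM in libraries labelled U2AF2 SI, against 95.6, 106 and 104 CPM in those labelled U2AF2 SINC. The groups overlapped fully, and the highest library was 1.18 times the lowest. Its log2 fold change of 0.02 ± 0.16 (SE) had a 95% interval of -0.33 to 0.37, which leaves room for a difference as far as either bound.

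THOC2 was the least steady. It stood at 7.39, 3.84 and 4.84 CPM in libraries labelled U2AF2 SI, against 11.2, 2.15 and 5.35 CPM in those labelled U2AF2 SINC. The highest and the lowest of the 6 libraries were both labelled U2AF2 SINC and differed 5.23-fold, on 481 and 87 counts. The log2 fold change of -0.22 ± 0.50 (SE) had a 95% interval of -1.32 to 0.87, and it became 0.51 when replicate 1 labelled U2AF2 SINC was left out and -0.63 when replicate 2 was. THOC1 spread 2.36-fold, with 11.6, 7.13 and 10.7 CPM in the U2AF2 SI libraries against 6.09, 6.84 and 14.4 CPM in the U2AF2 SINC libraries, and a log2 fold change of 0.11 ± 0.35 (SE) that was 0.61 without replicate 3 labelled U2AF2 SINC. Both low genes thus varied more within a group than between the groups. USP14, whose exons overlap those of THOC1 on the other strand, was also lowest in replicates 1 and 2 labelled U2AF2 SINC, with 113, 78.2 and 80.3 CPM in the U2AF2 SI libraries against 65.0, 66.1 and 99.8 CPM in the U2AF2 SINC libraries.

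THOC3 and THOC6 shared a library pattern. THOC3 stood at 60.6, 88.2 and 73.7 CPM in libraries labelled U2AF2 SI, against 100.1, 99.1 and 71.7 CPM in those labelled U2AF2 SINC. THOC6 stood at 30.9, 52.9 and 38.4 CPM in the U2AF2 SI libraries, against 59.4, 49.8 and 37.6 CPM in the U2AF2 SINC libraries. Both were lowest in replicate 1 labelled U2AF2 SI and highest in replicate 1 labelled U2AF2 SINC, and the groups overlapped. The median deviation of the shortest class of rows was lowest and highest in the same libraries, at -0.36 and 0.32. U2AF1 and KRT18 had the same lowest and highest libraries, so the pattern was not particular to export genes. Log2 fold changes were -0.28 ± 0.20 (SE) for THOC3 and -0.26 ± 0.24 (SE) for THOC6. With the length and GC trend removed they were -0.22 and -0.03. The 5 THO genes together had 2 log2 fold changes above 0 and 3 below, with edgeR adjusted p from 0.738 to 0.981.

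**Figure D4:**
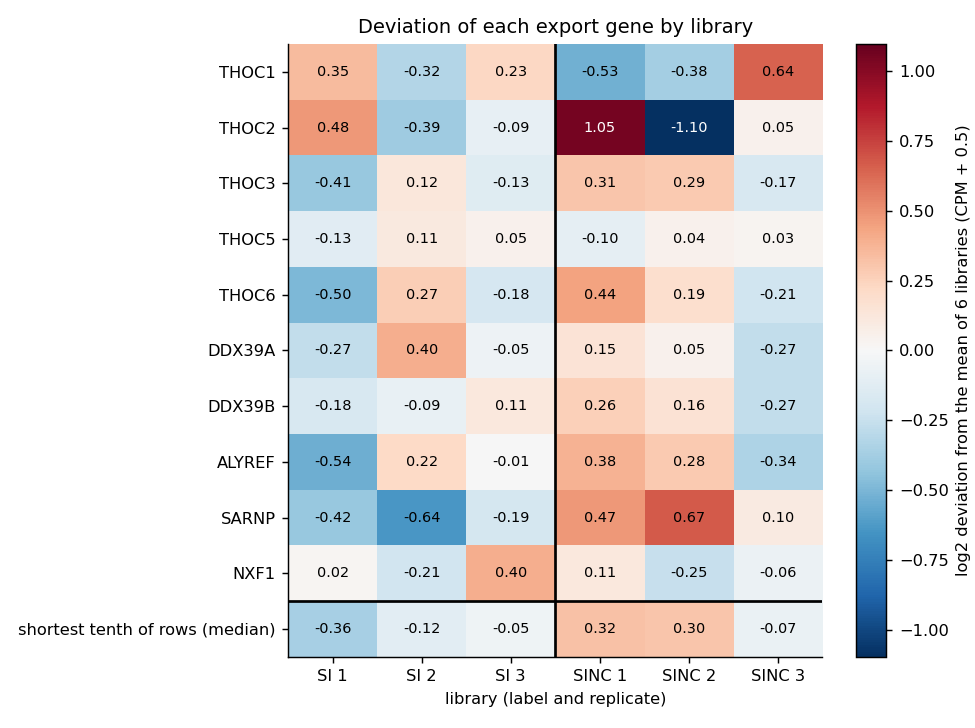
Deviation of each export gene from its mean over the 6 libraries, on the log2 scale (CPM + 0.5), with U2AF2 SI libraries left and U2AF2 SINC libraries right, and the median of the rows with the shortest transcripts (192 to 1439 nt) in the bottom line. SARNP is below 0 in all 3 U2AF2 SI libraries and above 0 in all 3 U2AF2 SINC libraries, while THOC2 runs from 1.05 to -1.10 within the U2AF2 SINC libraries.

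The helicase genes, whose products unwind RNA and load the adaptors, were well measured and close between the groups. DDX39B stood at 288, 307 and 351 CPM in libraries labelled U2AF2 SI, against 390.1, 364 and 269 CPM in those labelled U2AF2 SINC. The U2AF2 SINC libraries held both the highest and the lowest value. Means were 315 ± 32.8 CPM in the U2AF2 SI libraries and 341 ± 63.6 CPM in the U2AF2 SINC libraries (SD, n = 3 each). For DDX39B the log2 fold change was -0.11 ± 0.19 (SE; 95% interval -0.54 to 0.31), which became -0.0053 when replicate 1 labelled U2AF2 SINC was left out and -0.26 when replicate 3 was. DDX39A stood at 135, 214 and 157 CPM in libraries labelled U2AF2 SI, against 181, 168 and 134 CPM in those labelled U2AF2 SINC. Replicate 2 labelled U2AF2 SI was the highest library, and the others lay between 134 and 181 CPM. DDX39A had a log2 fold change of 0.06 ± 0.21 (SE; 95% interval -0.39 to 0.52), and it was -0.13 without that library. With the length and GC trend removed it was 0.27 ± 0.13 (SE), at an unadjusted p of 0.0664 and an edgeR adjusted p of 0.669. For DDX39B, the helicase that binds U2AF2, no difference was detected with 3 libraries a group. The interval leaves room for one as far as -0.54 on the log2 scale.

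Within a library the helicase genes held a nearly fixed ratio, with 1 exception. DDX39A took 31.9%, 41.1% and 30.8% of the counts of both genes across the U2AF2 SI libraries, against 31.7%, 31.7% and 33.3% across the U2AF2 SINC libraries. Replicate 2 labelled U2AF2 SI, at 41.1% with an exact binomial 95% interval of 40.5% to 41.7%, lay above the other 5 libraries, whose intervals together spanned 30.2% to 34.0%. Mean shares were 34.6% ± 5.66 in the U2AF2 SI libraries and 32.2% ± 0.961 in the U2AF2 SINC libraries (SD, n = 3 each), a difference of 2.42 percentage points that was -0.837 without replicate 2 labelled U2AF2 SI. Per length, DDX39B was at 148 ± 15.4 CPM per kb in libraries labelled U2AF2 SI and 159.8 ± 29.8 CPM per kb in those labelled U2AF2 SINC, and DDX39A at 115 ± 27.9 CPM per kb in the U2AF2 SI libraries and 109.6 ± 16.3 CPM per kb in the U2AF2 SINC libraries (SD, n = 3 each).

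ALYREF, the adaptor that binds the helicase and NXF1, had the highest mean per length of the export genes in both groups. It was at 207 ± 52.7 CPM per kb in libraries labelled U2AF2 SI and 240.1 ± 59.7 CPM per kb in those labelled U2AF2 SINC (SD, n = 3 each). SARNP was at 131 ± 20.2 CPM per kb in the U2AF2 SI libraries, below DDX39B there, and at 235 ± 45.8 CPM per kb in the U2AF2 SINC libraries, where it was second to ALYREF and within its spread. In the U2AF2 SI libraries ALYREF overlapped DDX39B in mean ± SD, and DDX39B, SARNP and DDX39A overlapped too. ALYREF had 163, 276 and 236 CPM in libraries labelled U2AF2 SI, against 308, 288 and 187 CPM in those labelled U2AF2 SINC. The groups overlapped, with the lowest value in replicate 1 labelled U2AF2 SI and the highest in replicate 1 labelled U2AF2 SINC. THOC3, THOC6 and the median of the shortest class of rows had the same lowest and highest libraries. ALYREF had a log2 fold change of -0.22 ± 0.24 (SE), which turned to 0.13 with the length and GC trend removed. Leaving out replicate 1 labelled U2AF2 SI gave -0.04, and leaving out replicate 3 labelled U2AF2 SINC gave -0.41. ANAPC11, which overlaps it on the other strand, had 65.0, 96.0 and 93.6 CPM in libraries labelled U2AF2 SI, against 144, 134 and 92.6 CPM in those labelled U2AF2 SINC.

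NXF1, the receptor that moves most messenger RNA through the pore together with NXT1, had overlapping groups as well. It stood at 69.7, 59.4 and 90.7 CPM in libraries labelled U2AF2 SI, against 74.6, 57.7 and 65.9 CPM in those labelled U2AF2 SINC. Replicate 3 labelled U2AF2 SI was the highest and the other 5 libraries were mixed. NXF1 had a log2 fold change of 0.15 ± 0.20 (SE; 95% interval -0.28 to 0.58), and it was -0.03 without that library and -0.0088 with the length and GC trend removed.

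**Figure D5:**
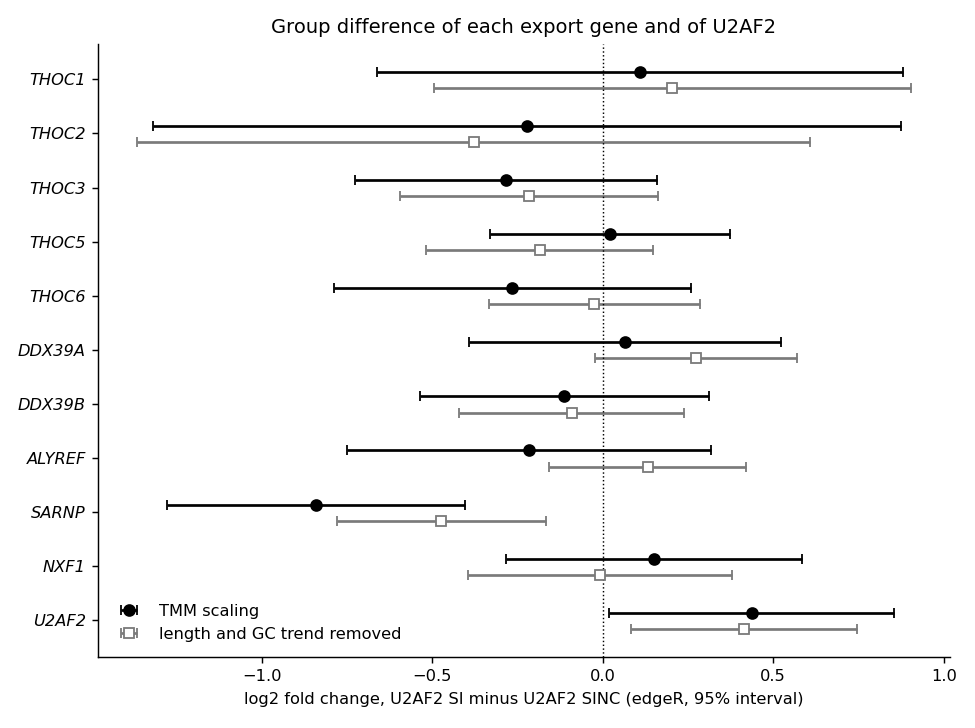
Log2 fold change (U2AF2 SI minus U2AF2 SINC) of the 10 export genes and U2AF2 in edgeR, with 95% intervals: filled circles with TMM scaling, open squares with the length and GC trend removed. Of the 10 export genes, only SARNP has intervals clear of 0, -1.28 to -0.40 and -0.78 to -0.17.

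The wider export pathway was read through 8 lists of 60 genes in all, chosen with earlier results of these data known, of which 56 had a row. In edgeR 0 of the 56 passed over all rows (0.00836% of rows did), and 7 had an unadjusted p under 0.05. Of these, 4 had U2AF2 SI higher and 3 had it lower, where 3.15% of all rows were higher and 4.22% lower. The groups did not overlap in 8 of the 56, where this held for 13.0% of all rows. TREX-2, the complex that ties transcribed genes to the pore, held all 3 of the lower genes among its 6, and its median log2 fold change was -0.49, or -0.35 with the length and GC trend removed. SEM1, a small subunit that the proteasome also uses, averaged 67.4 ± 22.03 CPM in libraries labelled U2AF2 SI and 118 ± 13.6 CPM in those labelled U2AF2 SINC (SD, n = 3 each), with a log2 fold change of -0.81 ± 0.24 (SE). ENY2, which also belongs to the SAGA coactivator, averaged 64.0 ± 12.2 CPM in the U2AF2 SI libraries and 99.1 ± 21.1 CPM in the U2AF2 SINC libraries, with a log2 fold change of -0.63 ± 0.21 (SE). CETN2, a centrin that also serves the centrosome, averaged 33.5 ± 1.34 CPM in the U2AF2 SI libraries and 46.8 ± 6.47 CPM in the U2AF2 SINC libraries, with a log2 fold change of -0.48 ± 0.18 (SE). In these 3 genes the groups did not overlap, where 5.68% of all rows had U2AF2 SI lower without overlap, and each had an edgeR adjusted p of 0.653. With the length and GC trend removed the log2 fold changes were -0.79, -0.66 and -0.28, at edgeR unadjusted p of 0.0113, 0.0205 and 0.0806. That correction took the longest protein-coding transcript of each gene, of 2667, 2922 and 1454 nt. The transcripts that the cells used were not measured, and a shorter one would be corrected differently. The TREX-2 scaffold MCM3AP, with PCID2, was among the 2 of 6 above 0.

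Of the 9 genes for release of the RNA at the cytoplasmic face of the pore, 8 had a log2 fold change above 0, where 54.3% of all rows did. The list's median was 0.17, beside 0.04 for all rows. With the length and GC trend removed 7 of the 9 were above 0 and the median was 0.05. Of all 11327 rows with a length, 5601 were above 0 in that fit, and their median was -0.0028. NUP214, a nucleoporin that anchors the release helicase DDX19B, averaged 63.6 ± 6.86 CPM in libraries labelled U2AF2 SI and 41.5 ± 6.68 CPM in those labelled U2AF2 SINC (SD, n = 3 each), with a log2 fold change of 0.61 ± 0.19 (SE). NUP98 averaged 107 ± 8.06 CPM in the U2AF2 SI libraries and 77.5 ± 15.7 CPM in the U2AF2 SINC libraries, with a log2 fold change of 0.46 ± 0.19 (SE), and NUP155 had a log2 fold change of 0.55 ± 0.23 (SE). All 3 had an unadjusted p under 0.05 and an edgeR adjusted p of 0.653. Their transcripts were long, at 7600, 7023 and 8143 nt, and with the length and GC trend removed the values were 0.41, 0.23 and 0.37, at unadjusted p of 0.0109, 0.104 and 0.0525.

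In the remaining lists U2AF2 alone had an unadjusted p under 0.05. The 9 measured TREX cofactors outside the members had a median of 0.08, with THOC7 at -0.33 ± 0.21 (SE), RBM27 at 0.48 ± 0.34 (SE) and FYTTD1, an alternative NXF1 adaptor, at 0.41 ± 0.31 (SE). Without replicate 1 labelled U2AF2 SI the values of RBM27 and FYTTD1 were 0.10 and 0.07. The log2 fold change of THOC7, the THO subunit that pairs with THOC5, was 0.02 with the length and GC trend removed. The 5 cap-binding and ARS2 genes had a median of 0.12 (SRRT 0.20, NCBP1 0.29, NCBP3 0.12), and the 9 NXF1 adaptor genes 0.14 (SRSF1 0.29, YTHDC1 0.28, ALKBH5 0.16). With the length and GC trend removed these list medians were -0.0075 and -0.02. Without replicate 1 labelled U2AF2 SI, NCBP1 was 0.06, SRSF1 0.07 and YTHDC1 0.04. Of the NXF1 partner and family list 2 of 5 genes had a row, NXT1 at -0.35 ± 0.20 (SE) and NXT2 at 0.78 ± 0.48 (SE). The 9 measured genes of CRM1 export and the RAN cycle had a median of -0.06 (RAN -0.36, RANBP1 -0.28, XPO1 0.26). The 7 U2AF and branch point genes had a median of 0.17, with SF3B1 at 0.37 ± 0.26 (SE) and U2AF1 at -0.29 ± 0.21 (SE).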

How the data were processed

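The authors deposited raw counts, whole numbers of reads per gene or assembled locus, for 6 poly(A)-selected libraries that the labels' protocols call strand-specific. The submitters' processing notes name CASAVA and StringTie, without role or version. The aligner, counter, build and annotation behind the counts: not given in the sources used here. Columns were tied to libraries by the sample descriptions, and 0 were left over. Rows averaged 31 counts per library or more, and genes below that were not analysed here.

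edgeR 4.0.16 (R 4.3.3) kept 11957 rows under filterByExpr, and glmQLFit and glmQLFTest were run with TMM factors and group as the single term, with Benjamini-Hochberg adjustment over all rows at 0.05. The biological coefficient of variation was 27.0%. Standard errors and 95% intervals came from the quasi-likelihood F statistic. Deviations used log2 of CPM + 0.5. Exact binomial intervals of shares cover counting error only and leave out variation between libraries. They treat each read as independent, and duplicate reads would make them too narrow.

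Lengths, GC content and sequences came from GENCODE 29 (GRCh38), using the longest protein-coding transcript where a gene had one, and 94.7% of rows had a length. To remove the length and GC trend, a loess (span 0.3) was fitted per library and passed to edgeR as offsets.

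The members, the 8 pathway lists and the marker lists were chosen with earlier results of these data known. Named genes were the members, U2AF2, U2AF1 and up to 3 genes of each pathway list, taken by adjusted p and then by size of change. MCM3AP, PCID2, overlapping genes and marker genes were named besides. The alternatives were RLE and upper-quartile factors, library size alone, no filter on low counts, a minimum mean of 5 CPM, omission of assembled loci, the replicate block, the length and GC trend, the last pair together, omission of each library, DESeq2 1.42.0 and limma-voom (limma 3.58.1). DESeq2 without independent filtering, and summing read-through rows with SARNP and DDX39B, were added after the data were seen.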

Additional observations from a re-analysis of the deposited data

How the results depend on the processing

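The count of rows called by edgeR was 1 and became 0 with upper-quartile factors, with library size alone, under a 5 CPM minimum mean, and with the length and GC trend removed with or without the replicate block. It was 2 with the replicate block, 0 to 2 when 1 library was left out, 61 in DESeq2 and 4 in DESeq2 without independent filtering. DESeq2 called 1 export gene (SARNP) of the 4 to which it gave an adjusted p, and 0 of the 13 pathway genes that had one, so the others could not be called there. In the other 18 settings 0 of the 10 export genes were called. Pathway genes called were 0 there too, with 54 of the 56 tested under the 5 CPM minimum and 56 in the rest. Omitting the filter on low counts left all 11957 rows and every value as before, so it was no real change. At an unadjusted p under 0.05, 881 rows became 384 to 1721 when 1 library was left out (384 and 410 without replicates 2 and 1, and 1721 without replicate 3, labelled U2AF2 SINC) and 548 with the replicate block. Same-numbered libraries correlated at -0.09, 0.25 and -0.31 in their deviations from the group means, and replicate 1 labelled U2AF2 SI correlated best, at 0.46, with replicate 3 labelled U2AF2 SINC, so the numbers were not taken to pair them. With the replicate block SARNP had a log2 fold change of -0.83, and an unadjusted p of 0.00711.

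With library size alone the all-row median was 0.22, against 0.04 with TMM; this scaling turned THOC2 to 0.0012 and DDX39B to 0.082. THOC2 was also above 0 with the replicate block (0.011) and in limma-voom (0.020). With the length and GC trend removed, without and with the replicate block, THOC5 was -0.19 and -0.20, ALYREF 0.13 and 0.13, NXF1 -0.0088 and -0.019, THOC7 0.020 and 0.047, and NCBP3 -0.051 and -0.047. The cause of these turns was not tested. Leaving out 1 library turned the sign of THOC1 (-0.11 to 0.61), THOC2 (-0.63 to 0.51), THOC5 (-0.023 to 0.073), DDX39A (-0.13 to 0.19), NXF1 (-0.033 to 0.29), NCBP3 (-0.051 to 0.32), XPO1 (-0.16 to 0.44) and SRRT (-0.00092 to 0.34). SARNP stayed between -0.98 and -0.70. The DDX39A share differed by -0.837 to 4.32 percentage points. THOC3 (-0.43 to -0.17), THOC6 (-0.49 to -0.10), ALYREF (-0.41 to -0.04) and DDX39B (-0.26 to -0.0053) kept their sign when 1 library was left out but moved over 1.5 times, as did RBM27 (0.10 to 0.76), FYTTD1 (0.07 to 0.70), THOC7 (-0.49 to -0.20), NCBP1 (0.05 to 0.70), SRSF1 (0.07 to 0.45), YTHDC1 (0.04 to 0.52), ALKBH5 (0.08 to 0.24), RANBP1 (-0.43 to -0.18), SF3B1 (0.12 to 0.64), NXT2 (0.48 to 1.14) and U2AF1 (-0.45 to -0.18). The lowest member count in a library was 87, for THOC2, where counting error alone is 10.7% and the coefficient of variation among U2AF2 SINC libraries was 73.8%.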
